A study of Mus musculus with 7 samples.

Results

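Wide open promoters without any TRF2 peak are stretches of accessible chromatin at or within 1000 bp of the starts of protein-coding genes. Neither CUT&Tag library of TRF2 held a peak in them. They were chosen by measured values, namely the width of the ATAC-seq region and the absence of a TRF2 peak. The MACS peaks of 4 ATAC-seq libraries on chromosomes 1 to 19 were merged into 120444 regions, of which 60354 held a peak in all 4 libraries and 14164 of these lay within 1000 bp of a coding start of GENCODE M21. All coordinates are of genome build mm10 (GRCm38). Of the 14164, 3390 were 1500 to 1999 bp wide, and 1192 of these (35.2%) overlapped no TRF2 peak and are described here. They are set against the 1431 promoters of the same width with a TRF2 peak in both libraries. The remaining 767 held a TRF2 peak in 1 library and belong to neither class.

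The cells were muscle stem cells (MuSCs), the Pax7-expressing stem cells that lie along mouse muscle fibres. The study's general protocol sorted MuSCs as negative for the blood, endothelial and mesenchymal surface markers CD45, CD31, CD11b and Sca1. They were also positive for α7-integrin with VCAM or CD34. For CUT&Tag the methods cite a separate isolation protocol. ATAC-seq, in which a transposase cuts accessible DNA, was done on hind limb MuSCs labelled 0 hr, in 2 Control and 2 TRF2KO libraries. In the study's mice a tamoxifen-inducible Cre driven from Pax7 (Pax7-CreERT2) deletes floxed Terf2 in MuSCs on a C57BL/6 background, so the deletion reaches only cells that express Pax7. The genotype field of all 4 libraries reads wild type, and the groups were taken from the titles. CUT&Tag, in which an antibody brings the transposase to a protein on chromatin, was done on wild-type MuSCs of the tibialis anterior muscle, with 2 libraries for TRF2 and 1 for a rabbit IgG. Its label gives day 3 after notexin, a toxin that injures muscle, whereas the methods text names an earlier time and gastrocnemius as a second muscle, from mice in which Cre from Pax7 also switches on TdTomato. TRF2 peaks therefore came from cells of injured muscle. The ATAC-seq label names no injury, and 0 hr is read here as uninjured muscle. If so, the cells of the 2 assays were in different states. The ATAC-seq libraries are described as biological replicates, while nothing says which mice or how many stood behind each library of either assay, so p-values measure the spread between these libraries.

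TRF2, encoded by Terf2, is a member of the shelterin complex, which binds the TTAGGG repeats of chromosome ends and keeps them from being read as breaks. It is also found at sites inside chromosomes. Most mammalian housekeeping genes start in a CpG island, a stretch in which the dinucleotide CG has been kept while it was lost elsewhere in the genome. Genes used in few tissues often have weaker or alternative promoters, some of them without a CpG island.

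Read totals were not analysed here, and the depth behind each peak was solved from its fold and p-value. On chromosomes 1 to 19 the ATAC-seq lists held 82556 to 98558 peaks and the TRF2 lists 12066 and 15223, against 640 for IgG. In the ATAC-seq libraries the members' summits rested on a median pileup of 113 to 133 fragments. TRF2 peaks at the compared promoters rested on far fewer, with medians of 12 and 11 fragments and a lowest value of 4 in each replicate, so a missing TRF2 peak means that a low threshold was not passed and not that TRF2 was absent. None of the 1192 members held an IgG peak, which allows a share of up to 0.252% (3 counts of 1192) by counting error alone, and neither did any of the 1431 promoters with TRF2. IgG peaks were rare at open promoters as a whole, with 14 of 14164 (0.0988%). Starts of 8 of 8 MuSC markers lay within reach of a region shared by all 4 ATAC-seq libraries, as did 0 of 3 myofibre markers, 1 of 4 leukocyte markers (Cd68), 3 of 4 endothelial markers, 2 of 3 fibro-adipogenic markers and 1 of 2 Schwann cell markers on these chromosomes. The start of the targeted gene Terf2 itself (chr8:107095609-107097141) was 1533 bp wide and open in all 4 libraries. Its ATAC-seq rank, the percentile of its MACS fold among the 60354 shared regions, was 85.6 and 86.0 in Control against 66 and 64.2 in TRF2KO. Both TRF2KO libraries were thus below both Control libraries at Terf2, also with ranks among all MACS peaks or among open promoters alone and in fold. This promoter held a TRF2 peak in replicate 1 only and is not a member.

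Sequence at the summit shows what kind of promoter the members are. The 200 bp around the highest ATAC-seq point in Control replicate 1 are printed in the direction of transcription of the nearest gene, read from the RefSeq copy of GRCm38, with each CG in capitals. The 4 members with the highest ATAC-seq rank are shown because they are as accessible as promoters with TRF2 and still hold no TRF2 peak. They belong to Dcaf15, a substrate receptor of a ubiquitin ligase, Traf2, an adaptor of tumour necrosis factor receptors, Nsmce1, a subunit of a chromosome-maintenance complex, and Ippk, a kinase that makes inositol hexakisphosphate.
Dcaf15 (chr8:84104861-84105060, minus strand): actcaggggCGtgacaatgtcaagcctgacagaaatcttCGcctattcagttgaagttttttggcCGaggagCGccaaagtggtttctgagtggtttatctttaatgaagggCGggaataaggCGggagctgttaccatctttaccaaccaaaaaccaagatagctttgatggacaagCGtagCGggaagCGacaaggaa
Traf2 (chr2:25546945-25547144, minus strand): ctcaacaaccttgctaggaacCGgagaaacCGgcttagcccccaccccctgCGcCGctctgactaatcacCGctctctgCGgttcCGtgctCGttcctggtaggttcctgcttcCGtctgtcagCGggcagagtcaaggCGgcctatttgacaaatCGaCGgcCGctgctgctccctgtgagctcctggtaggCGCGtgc
Nsmce1 (chr7:125491432-125491631, minus strand): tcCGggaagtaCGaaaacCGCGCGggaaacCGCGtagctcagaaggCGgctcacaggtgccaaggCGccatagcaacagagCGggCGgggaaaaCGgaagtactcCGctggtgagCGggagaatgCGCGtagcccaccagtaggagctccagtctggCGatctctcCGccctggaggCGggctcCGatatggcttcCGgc
Ippk (chr13:49421089-49421288, plus strand): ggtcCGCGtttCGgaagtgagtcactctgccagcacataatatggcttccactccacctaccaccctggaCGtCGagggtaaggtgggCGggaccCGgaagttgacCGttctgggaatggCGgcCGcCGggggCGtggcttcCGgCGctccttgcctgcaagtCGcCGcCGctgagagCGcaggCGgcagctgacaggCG

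The next member is shown because its gene belongs to the list of MuSC identity genes. It is Calcr, the calcitonin receptor that quiescent MuSCs carry.
Calcr (chr6:3763590-3763789, minus strand): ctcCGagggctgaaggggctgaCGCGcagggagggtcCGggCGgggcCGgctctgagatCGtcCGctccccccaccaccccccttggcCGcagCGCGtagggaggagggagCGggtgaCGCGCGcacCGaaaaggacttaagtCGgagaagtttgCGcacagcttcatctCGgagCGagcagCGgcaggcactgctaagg

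For comparison, the 3 promoters of the same width with the highest TRF2 fold in their weaker replicate belong to Evi5l, a regulator of Rab GTPases, Fam98a, part of a transfer RNA ligase complex, and Anapc4, a subunit of the anaphase-promoting complex.
Evi5l (chr8:4166234-4166433, plus strand): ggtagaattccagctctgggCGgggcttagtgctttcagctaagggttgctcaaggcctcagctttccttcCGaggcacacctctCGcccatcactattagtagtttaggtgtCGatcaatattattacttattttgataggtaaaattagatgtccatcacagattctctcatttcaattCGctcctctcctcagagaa
Fam98a (chr17:75551984-75552183, minus strand): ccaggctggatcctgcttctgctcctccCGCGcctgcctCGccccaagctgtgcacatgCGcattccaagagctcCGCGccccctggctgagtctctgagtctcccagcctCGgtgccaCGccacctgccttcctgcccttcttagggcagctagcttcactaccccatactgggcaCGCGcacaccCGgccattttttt
Anapc4 (chr5:52833920-52834119, plus strand): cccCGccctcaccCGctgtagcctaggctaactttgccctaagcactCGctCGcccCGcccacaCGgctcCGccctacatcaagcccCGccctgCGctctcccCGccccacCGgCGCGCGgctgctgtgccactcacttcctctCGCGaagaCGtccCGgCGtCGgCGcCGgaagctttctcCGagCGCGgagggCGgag

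The 4 members of highest rank held 9 (Dcaf15) to 21 (Nsmce1) CG in these 200 bp, the Calcr member 21, and the 3 promoters with TRF2 from 5 (Evi5l) to 26 (Anapc4). Single windows of the classes therefore overlapped in CG content, and the classes differed only in their distributions, which are given below.

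Whether an open promoter held a TRF2 peak went with its width up to about the members' width and, at that width, with how accessible it was. Of the 322 open promoters narrower than 500 bp, 92.5% (95% interval 89.1 to 95.2) held no TRF2 peak. The share was 75.5% from 500 bp to under 1000 bp, 46.5% from 1000 bp to under 1500 bp and 35.2% (33.6 to 36.8) from 1500 to 1999 bp. From 2000 bp upward the share lay between 33.4% and 35.9%, so it fell up to about 1500 bp of width and stayed level beyond. Within the 3390 promoters of the members' width, ordered by rank in Control replicate 1 and cut into 5 quintiles, the share without TRF2 was 75.6% (72.2 to 78.8) in the lowest, then 50.3%, 30.4% and 16.8%, and 2.36% (1.35 to 3.8) in the highest. Intervals of shares are Clopper-Pearson at 95% and cover counting error only.

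**Figure D1:**
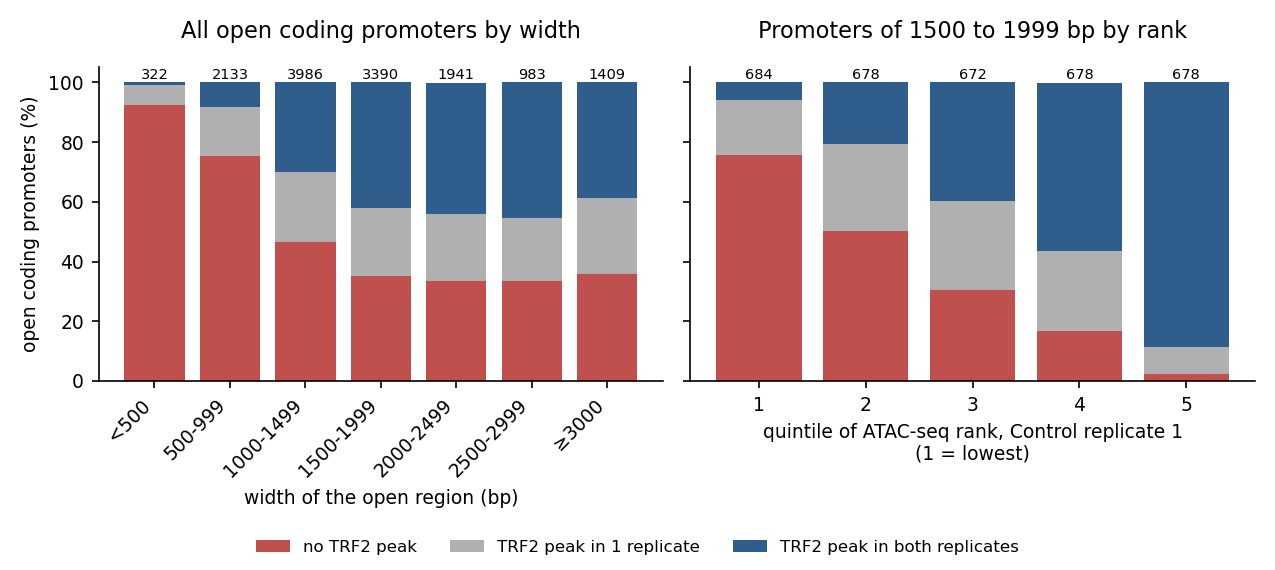
Share of open coding promoters with no TRF2 peak, a TRF2 peak in 1 replicate or in both (%, y axis), by width of the open region (left) and, for the 3390 promoters of 1500 to 1999 bp, by quintile of ATAC-seq rank in Control replicate 1 (right); numbers above the bars count promoters. Promoters without TRF2 make up 35.2% at the members' width and go from 75.6% in the lowest quintile of rank to 2.36% in the highest.

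The members were therefore open at a lower level than the promoters with TRF2, in every library. Their median rank was 69.4 and 70.3 in Control replicates 1 and 2 and 72.5 and 72.4 in TRF2KO replicates 1 and 2. For promoters with TRF2 in both libraries the medians were 93.7, 94.0, 94.5 and 94.2 in the same order. In MACS fold over background, the members' medians were 26.8, 24.1, 27.9 and 25.8, against 88.6, 78.5, 97.0 and 89.9. The middle portion of the members, between the quartiles, ran from 48.8 to 82.6 in rank in Control replicate 1, and that of the promoters with TRF2 from 86.8 to 97.3, so these ranges did not overlap. The extremes did, since members reached 99.0 and promoters with TRF2 went down to 5.76 in that library. The rule did not use the height of the ATAC-seq peak, only its presence and the width of the region. Both assays cut DNA with a transposase, and the part of accessibility in the TRF2 peaks was not tested. The single IgG library held a peak at 14 of the 14164 open promoters (0.0988%). Its background pileup was 0.722 fragments, against 0.826 and 0.693 in TRF2 replicates 1 and 2.

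**Figure D2:**
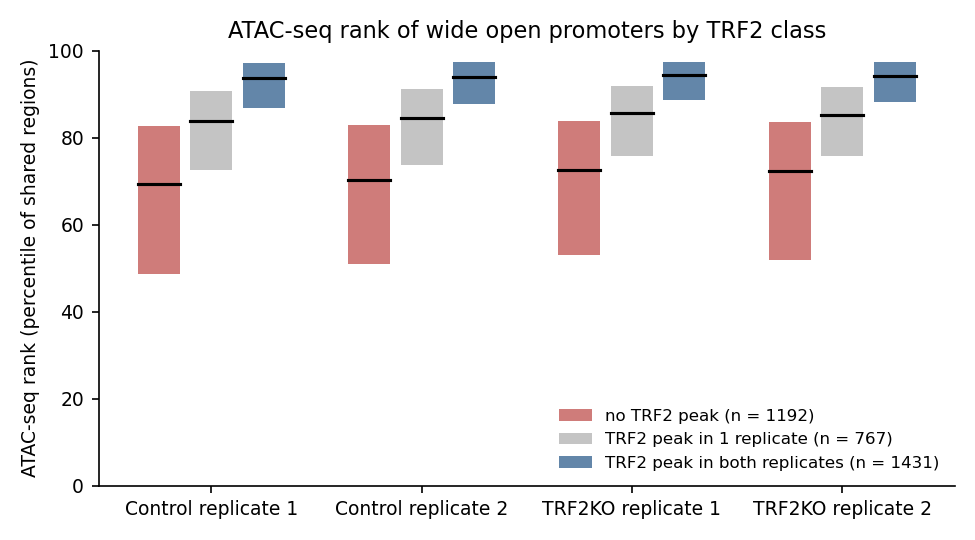
ATAC-seq rank (percentile of MACS fold among the 60354 shared regions, y axis) in each of the 4 ATAC-seq libraries for the 3 TRF2 classes of promoters of 1500 to 1999 bp; boxes span the quartiles and black lines mark medians. The members' medians lie at 69.4 to 72.5 and those of promoters with TRF2 in both replicates at 93.7 to 94.5.

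Other callers also found most members open in all 4 libraries, but a smaller share of them than of the promoters with TRF2. A SEACR region lay in all 4 libraries at 904 members (75.8%, 73.3 to 78.2) and at 98.4% of the promoters with TRF2, and GoPeaks regions lay in all 4 at 97.5% and 100%. More than 1 MACS peak made up the open region in 6.80% to 10.3% of members, depending on the library, and in 1.47% to 1.61% of promoters with TRF2.

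Over all ranks, the members were less tightly centred on a start. A coding start lay inside the region at 1101 members (92.4%, 90.7 to 93.8) and at 99.0% (98.4 to 99.5) of promoters with TRF2. The remaining regions of both classes only had a start within 1000 bp. The summit lay within 250 bp of the nearest coding start at 852 members (71.5%, 68.8 to 74.0) and at 92.1% (90.6 to 93.4) of promoters with TRF2. It lay in an intron of a coding gene at 28.4% of members and 16.2% of the others, in an exon at 39.3% and 31.9%, and outside coding genes at 32.2% and 51.9%. The summit was downstream of the start at 46.2% of members and at 26.4% of promoters with TRF2. The start annotated for the gene as a whole, and not only that of another transcript, lay in the region or within 1000 bp of it at 72.7% (70.1 to 75.2) against 83.5% (81.5 to 85.4). Paired starts of genes on opposite strands, the bidirectional promoters common among housekeeping genes, were found at 69 members (5.79%, 4.53 to 7.27) and at 16.4% (14.5 to 18.4) of promoters with TRF2. Part of this contrast went with accessibility. From the lowest to the highest quintile of rank in Control replicate 1, the summit lay a median of 176, 79.0, 53.0, 61.0 and 62.5 bp from the start in members and 156, 75, 54.0, 61.0 and 78.0 bp in promoters with TRF2. It was within 250 bp at 59.2%, 73.0%, 87.3%, 92.1% and 87.5% of members and at 65.9%, 84.4%, 90.3%, 95% and 94.7% of the others, lower in members in 5 of 5 quintiles with overlapping intervals each time. Starts on opposite strands were found at 2.71%, 5.87%, 11.3%, 9.65% and 6.25% of members and at 4.88%, 9.93%, 16.5%, 12.3% and 21.2% of the others, again lower in members each time with overlapping intervals. The intervals also overlapped in every quintile for summits in an intron, outside coding genes or downstream of the start and for the start of the gene as a whole.

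The members held fewer CpG-rich sequences than the promoters with TRF2. A window of 500 bp at the summit was called CpG-rich when its CG count was at least 0.6 of that foreseen from its C and G content and when at least 50% of its bases were G or C. By this measure 750 of 1192 members were CpG-rich (62.9%, 60.1 to 65.7) and 1312 of 1431 promoters with TRF2 (91.7%, 90.1 to 93.1), beside 68.3% of all 14164 open promoters. The median observed-to-expected CpG ratio was 0.736 in members and 0.825 in promoters with TRF2, with lower quartiles of 0.469 and 0.734. Median GC content was 61.8% and 64.2%. The members' ratios fell into a main group like that of the promoters with TRF2 and a second, broad group at low ratios.

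**Figure D3:**
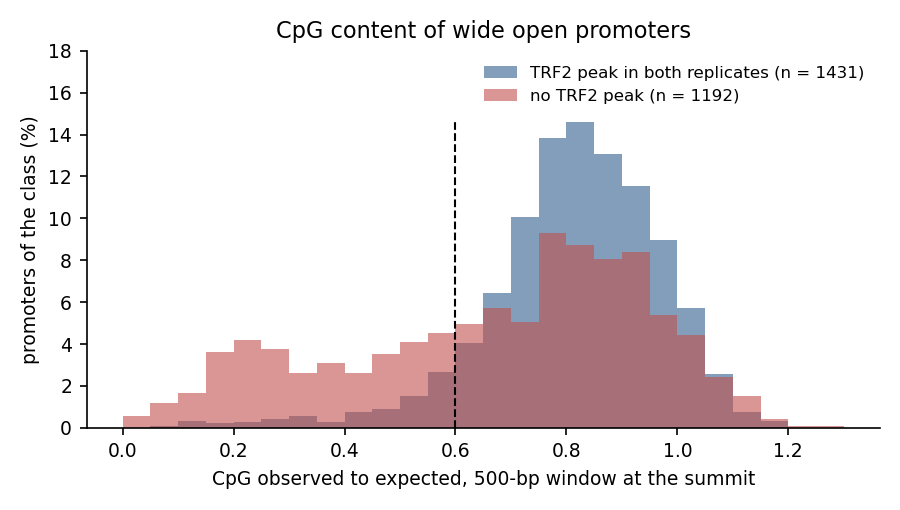
Distribution of the observed-to-expected CpG ratio in a 500-bp window at the ATAC-seq summit (x axis) as the percentage of promoters of each class (y axis), for members and for promoters with TRF2 in both replicates; the dashed line marks 0.6. The lower quartile is 0.469 in members and 0.734 in promoters with TRF2, and the upper parts of the distributions overlap.

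CpG-rich windows were less frequent in members within quintiles of accessibility as well. A quintile is not a match, since the lowest spans ranks of 0.0870 to 64.9, and ranks can differ between the classes within it. From the lowest to the highest quintile of ATAC-seq rank, CpG-rich windows made up 57.8%, 63.3%, 68.6%, 71.9% and 81.2% of members. In promoters with TRF2 the shares were 70.7%, 87.2%, 88.4%, 93.5% and 94.5%. Members were lower in 5 of 5 quintiles, and the intervals were apart in the 3 middle ones. The medians differed in both components of this measure. The median CpG ratio was 0.671, 0.730, 0.789, 0.823 and 0.780 in members and 0.788, 0.824, 0.826, 0.843 and 0.820 in promoters with TRF2, so the classes were closer in the 3 upper quintiles. Median GC content was 63.4%, 61.6%, 60.9%, 60.7% and 58.6% against 66.4%, 66.4%, 64.8%, 64.8% and 63.4%, lower in members in each quintile. The lowest quintile held only 41 promoters with TRF2 and the highest only 16 members. Read the other way, 27.7% (26.1 to 29.5) of CpG-rich wide promoters and 64.4% (60.7 to 68.0) of the others held no TRF2 peak, and in the middle quintile the shares were 25.5% (21.9 to 29.4) and 52.0% (42.8 to 61.1).

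Short motifs were counted in the same windows on both strands, by exact letters, and a match is a description of the sequence and not a binding site. NFY motifs (CCAAT), typical of housekeeping promoters, were found in 39.7% of members, 54.3% of promoters with TRF2 and 45.7% of all open promoters. SP motifs (GGGCGG) were found in 70.1%, 86.7% and 71.2%, and the ETS motif CCGGAAG in 15.4%, 27.3% and 19%. The NRF1 motif GCATGCGC stood in 4.70%, 8.53% and 5.30% and the YY1 motif AAGATGGC in 4.87%, 9.50% and 5.58%. The E-box CAGCTG, of the kind that MyoD and its relatives bind, went the other way, with 32.8%, 26.8% and 30.1%, with intervals apart (30.1 to 35.5 and 24.5 to 29.1). For the TEAD motif GGAATG the shares were 19.1%, 15.2% and 18.7%, for AP-1 (TGACTCA) 6.29%, 4.75% and 6.85%, for RUNX (TGTGGTT) 5.37%, 4.75% and 5.58%, for TATAAA 7.38%, 5.03% and 8.59%, for CACGTG 12.1%, 15.2% and 13.1%, and for the CRE letters TGACGTCA 3.36%, 4.96% and 3.68%. In these last 6 motifs the intervals of members and promoters with TRF2 overlapped.

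Much of the motif contrast went with accessibility. In the middle quintile of rank, CCAAT stood in 39.2% (32.5 to 46.3) of members and 34.1% (28.4 to 40.1) of promoters with TRF2, and CCGGAAG in 25% and 29.2%. In the lowest quintile the CCAAT shares were 37.7% and 46.3%, in the second 39.0% and 29.1%, in the fourth 50.9% and 53.9%, and in the highest 43.8% (7 of 16) and 70.0%, so the order of the classes changed between quintiles. CAGCTG stood in 36.2%, 31.4%, 28.4%, 30.7% and 25% of members from the lowest to the highest quintile and in 34.1%, 34.0%, 27%, 28.3% and 23.5% of promoters with TRF2, with overlapping intervals each time and the reverse order in the second. GGGCGG was less frequent in members in each of the 5 quintiles. In the middle one it stood in 74.0% (67.4 to 79.9) against 83.9% (78.9 to 88.1), with overlapping intervals. The intervals were apart only where the shares were 69.2% against 82.3% and 73.7% against 85.6%. This motif itself holds a CG. Over all ranks it stood in 87.5% (84.9 to 89.8) of CpG-rich members and 88.8% (87.0 to 90.5) of CpG-rich promoters with TRF2. In windows that were not CpG-rich the shares were 40.7% (36.1 to 45.5) and 63.0% (53.7 to 71.7).

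Sequence of the kind that TRF2 binds at telomeres, TTAGGG repeats and G-rich runs, did not separate the classes as wholes. Letters that can form a G-quadruplex, that is 4 stretches of 3 or more G separated by 1 to 7 bases, lay in 486 member windows (40.8%, 38.0 to 43.6) and in 580 windows with TRF2 (40.5%, 38.0 to 43.1). From the lowest to the highest quintile of rank the shares were 45.3% and 63.4%, 37.5% and 46.1%, 38.7% and 41.2%, 37.7% and 41.9%, and 12.5% (2 of 16 members) and 36.5%, members given first. Within quintiles of rank members were thus lower each time, with overlapping intervals in all 5. A single TTAGGG unit stood somewhere in 51.9% of member regions and 49.7% of regions with TRF2. At least 2 units in a row were found in 2 members and 1 promoter with TRF2, and at least 3 in 1 and 0, so almost no promoter of either class held a run of telomeric repeats.

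Within the members, CpG-rich and other promoters differed in architecture. The 442 members that were not CpG-rich had a median ratio of 0.364, and their summits lay a median of 202 bp from the nearest start, against 69.0 bp for the 750 CpG-rich members. The start of the gene as a whole lay in reach of 61.3% (56.6 to 65.9) of them and of 79.5% (76.4 to 82.3) of the CpG-rich ones. CAGCTG stood in 46.4% (41.7 to 51.2) of their windows and in 24.8% (21.7 to 28.1) of CpG-rich windows, AP-1 letters in 11.1% and 3.47%, GGAATG in 24.9% and 15.7%, and TATAAA in 11.8% and 4.80%. GGGCGG stood in 40.7% and 87.5%. Motifs that contain CG are fewer in windows chosen for little CG, which the definition fixes. In accessibility these groups were closer, with median ranks of 65.7 to 67.4 in the 4 libraries for members that were not CpG-rich and 71.8 to 76.1 for the CpG-rich ones. The most accessible of the former were Gdpd5, a membrane phosphodiesterase (rank 96.2 to 97.3), Grn, the lysosomal glycoprotein progranulin (95.4 to 95.6), Men1, the tumour suppressor menin (95.2 to 95.8), Mindy4, a deubiquitinase (94.2 to 95.7), Pter (94.2 to 95.1) and Msrb1, a methionine sulphoxide reductase (94.1 to 95.5). These 6 were picked for their rank once the CpG classes had been seen.

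The members with the highest rank in their lowest library were those of Dcaf15, Traf2, Nsmce1 and Ippk. Dcaf15 (chr8:84103686-84105516) had ranks of 99.0 and 98.5 in Control and 98.8 and 99.1 in TRF2KO, and the nearest TRF2 peak was 20133 bp away. Its summit lay 198 bp upstream of a coding transcript start that is not the start of the whole gene. Traf2 (chr2:25545935-25547476) had ranks of 98.5 and 98.6 in Control and 97.6 and 98.0 in TRF2KO, with the nearest TRF2 peak at 1714 bp. The groups did not overlap there, by 0.51 percentile points. Nsmce1 (chr7:125490563-125492296) stood at 97.6 and 97.9 against 97.7 and 97.9, with its summit in an exon 64 bp downstream of the start. Ippk (chr13:49420573-49422298) stood at 96.6 and 97.0 against 97.2 and 97.0. Next in rank were Gdpd5, Usp42, a deubiquitinase, Tor2a, a torsin ATPase, Gabarapl2, an autophagy protein, and Cdc42, a small GTPase that controls cell polarity, with ranks between 95.4 and 97.7 in all libraries.

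The 5 members with the lowest rank in their highest library included 3 regions at developmental factors, those of Pitx1 and Tfap2a at alternative starts. Wt1, a transcription factor of kidney and mesothelium, had ranks of 1.69 and 2.43 in Control and 8.05 and 4.85 in TRF2KO. Pitx1, a hind limb factor, had 4.56 and 2.43 against 8.05 and 3.43, and Tfap2a, a factor of neural crest and skin, 4.56 and 6.21 against 1.61 and 4.85. The other 2 also belonged to alternative starts, of H2-K1, a class I histocompatibility gene (1.03 to 3.24), and of Klhdc8b (0.674 to 5.76). The Klhdc8b region lay downstream of its start without holding it. These 5 regions were as wide as the other members while their ranks stayed under 9 in every library.

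The gene lists, which cover 2 to 91 wide open promoters each, differed in how often TRF2 was missing. Against 35.2% over all 3390 wide promoters, 22 of the 31 promoters of homeobox and other developmental factors held no TRF2 peak (71.0%, 52.0 to 85.8). The same was true of 15 of 24 for integrins, cadherins and guidance receptors (62.5%, 40.6 to 81.2) and of 11 of 18 for extracellular matrix genes (61.1%, 35.7 to 82.7). At the other end were DNA repair with 2 of 19 (10.5%, 1.3 to 33.1) and ubiquitin enzymes with 22 of 91 (24.2%, 15.8 to 34.3). The intervals of these 5 lists left out 35.2% and those of the other lists did not, with no adjustment for the number of lists.

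Lists with few members among their wide promoters included replication-dependent histones (0 of 5), translation initiation factors (1 of 13), telomere proteins (1 of 7, Dclre1b, a nuclease of chromosome ends), proteasome subunits (2 of 9), splicing factors (3 of 12), cell cycle and DNA replication (8 of 32) and zinc finger proteins named Zfp (18 of 68). Mitochondrial ribosomal proteins had 5 of 18, cytosolic ribosomal proteins 10 of 34, kinases and phosphatases of the MAPK, PI3K and TGF-beta pathways 7 of 25, oxidative phosphorylation 8 of 23, chromatin modifiers 11 of 31, sarcomere genes 2 of 6 and solute carriers 21 of 58. Above the overall share were MuSC identity (4 of 5), Tead, Smad, Stat, Nfi and Runx factors (7 of 11), Notch (5 of 8), myogenic factors (3 of 5), other cell types (2 of 4) and immediate early genes (1 of 2).

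The lists also differed in accessibility. The wide promoters of the developmental list had a median rank of 48.1 in Control replicate 1, and 80.6% of them were CpG-rich. If each of its promoters had lacked TRF2 as often as all promoters of its quintile of rank, the list would have had 21.1 promoters without TRF2, against 22 observed. For integrins, cadherins and guidance receptors the median rank was 62.6 and the count so obtained 14.3 against 15, and for extracellular matrix genes 74.8 and 8.90 against 11. Several other lists lay farther from the count so obtained in proportion. MuSC identity genes, with a median rank of 80.3, had 4 against 2.37, and the Tead, Smad, Stat, Nfi and Runx factors, with 82.2, had 7 against 4.96. Cytosolic ribosomal proteins, with 92.8, had 10 against 7.19, and oxidative phosphorylation, with 91.9, had 8 against 5.10. Lists lower than the count so obtained included DNA repair, with a median rank of 94.9 and 2 against 3.58, and ubiquitin enzymes, with 87.2 and 22 against 30.6. Others among them were translation initiation factors (1 against 2.07), splicing factors (3 against 4.04), zinc finger proteins (18 against 20.5) and sarcomere genes (2 against 2.46). The part of accessibility in these shares was not tested further.

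**Figure D4:**
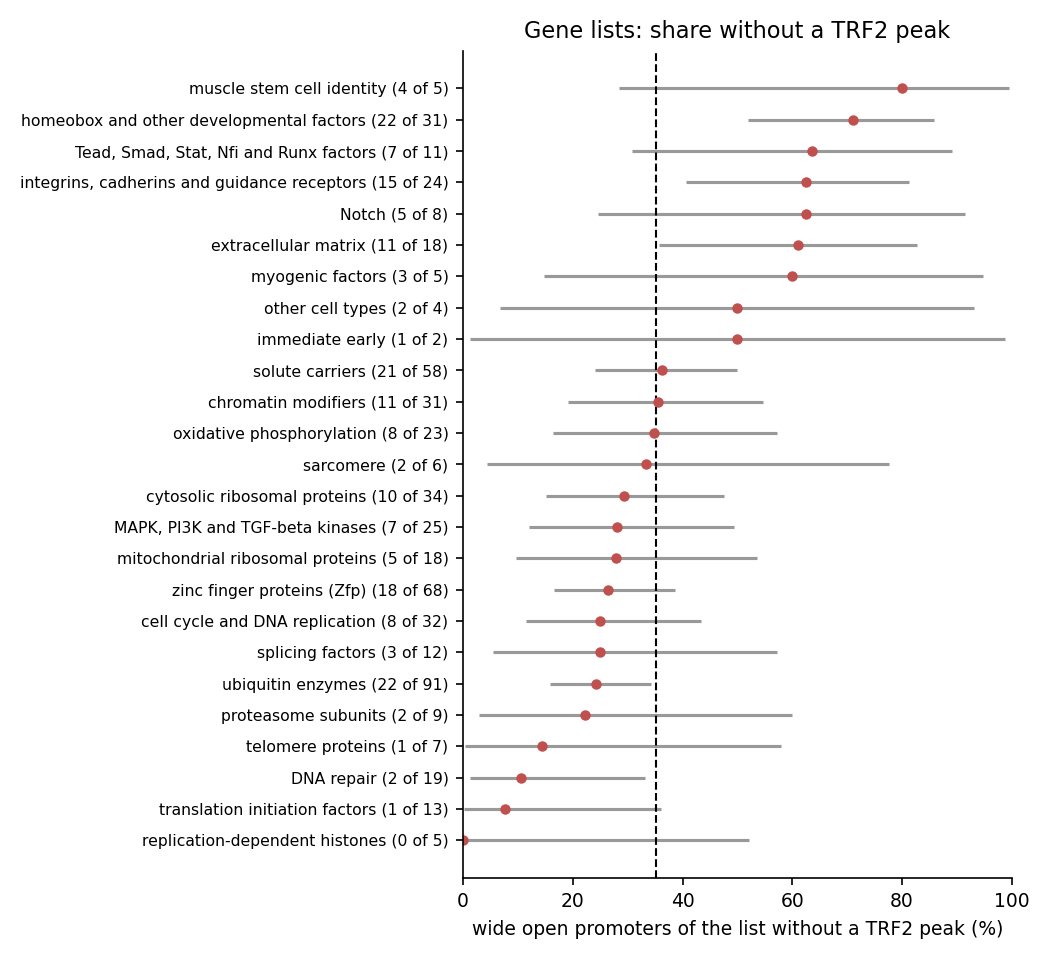
Share of the wide open promoters of each gene list named in the text that held no TRF2 peak (%, x axis), with exact 95% intervals; counts of members and of wide promoters stand beside each list and the dashed line marks 35.2%, the share over all 3390. The developmental list lies at 71.0% and DNA repair at 10.5%.

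Among MuSC identity genes, the promoters of Met, the receptor of hepatocyte growth factor, Calcr, Cdkn1c, an inhibitor of cyclin-dependent kinases, and Ptch1, the receptor of Hedgehog ligands, were members. Met (chr6:17463245-17464928) had ranks of 85.0 and 86.2 in Control and 85.3 and 87.5 in TRF2KO. Calcr (chr6:3763121-3764848) had 81.4 and 82.8 against 82.8 and 81.0, and Cdkn1c (chr7:143460411-143461913) had 80.3 and 81.7 against 82.5 and 83.0. At Ptch1 (chr13:63572292-63573997) the ranks were 55.8 and 66.2 against 61.1 and 61.4. The genotypes overlapped at Met, Calcr and Ptch1, and at Cdkn1c TRF2KO was higher by 0.804 points. The remaining wide promoter of the list, that of the surface marker Cd34, held TRF2 in both libraries, with folds of 8.91 and 7.94, although its rank was lower (65.2 and 65.2 in Control, 72.9 and 69.8 in TRF2KO) than that of Met, Calcr or Cdkn1c.

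Among myogenic factors, members were the promoter of Tead4, a transcription factor of the Hippo pathway, and 2 regions at or near alternative starts of Tcf4. Tcf4 is an E protein that pairs with MyoD-type factors. The second Tcf4 region lay downstream of its start and did not hold it. Tead4 had ranks of 53.8 and 53.5 in Control and 57.9 and 56.5 in TRF2KO, so TRF2KO was higher by 2.67 points. The first Tcf4 region had 46.1 and 44.6 against 48.0 and 27.7, and the second 8.16 and 8.57 against 6.48 and 1.20. In both, TRF2KO replicate 2 was the lowest library. The list's other wide promoters were Eya1, with TRF2 in replicate 2, and Klf5, with TRF2 in both.

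The Notch pathway keeps MuSCs quiescent through ligands on neighbouring cells, Notch receptors and Hes and Hey repressors. Its members were the ligand gene Jag2, the receptor gene Notch1, the repressor genes Hes5 and Hes7 and the glycosyltransferase gene Rfng, whose region also holds the start of Gps1. The Jag2 region lay upstream of an alternative start, within 1000 bp of it and without holding it. Its ranks were 53.8 and 63.3 in Control and 44.9 and 30.6 in TRF2KO, lower in both TRF2KO libraries by 8.96 points. The Notch1 region had ranks of 30.2 and 23.2 against 36.7 and 39.1, higher by 6.5 points. Hes5 had 31.3 and 36.1 against 38.7 and 35.7, Hes7 63.1 and 68.4 against 70.9 and 67.6, and Rfng 62.8 and 66.7 against 68.9 and 67.6. In rank the genotypes overlapped at Hes5 and Hes7, with a gap of 0.833 points at Rfng. In MACS fold they overlapped at Notch1 as well, with 8.98 and 6.84 in Control and 9.15 and 8.85 in TRF2KO. The same was true of Rfng, with folds of 21.2 and 21.2 against 24.0 and 21.1. The Hes7 region also lay upstream of its start without holding it. The proteases Adam10 and Adam17, which cut Notch, held TRF2 in both libraries and ranked from 96.2 to 98.2, while Dtx1 held TRF2 in replicate 2 at ranks of 21.2 to 32.5. The immediate early list had 1 member, Fosl1, a subunit of AP-1, with 53.8 and 59.8 against 62.2 and 54.9.

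**Figure D5:**
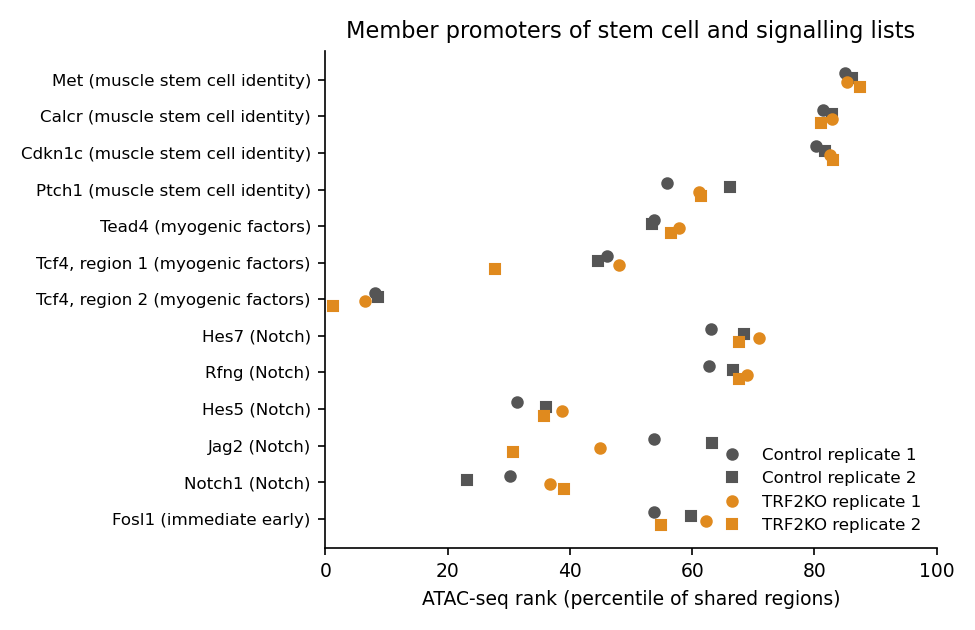
ATAC-seq rank (percentile among the 60354 shared regions, x axis) in each of the 4 libraries for the member promoters of the MuSC identity, myogenic, Notch and immediate early lists; each point is 1 library. Met, Calcr and Cdkn1c lie between 80.3 and 87.5 in all libraries, and Jag2 is lower and Notch1 higher in rank in both TRF2KO libraries. In MACS fold the genotypes overlap at Notch1. The Jag2, Hes7 and second Tcf4 regions lie near their start and do not hold it.

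Members of other lists spanned a wide range. Among developmental factors, Msx1, a homeobox repressor of myogenic differentiation, had ranks of 73.5 to 77.4, Gata2 59.9 to 71.5 and Bmp2, a secreted growth factor, 58.8 to 64.0. Wnt7b, a Wnt ligand, had 75.2 to 82 with a CpG ratio of 0.285. Among matrix genes, an alternative start of Col18a1 stood at 86.5 to 89.5 and Thbs2 at 90.4 and 89.0 in Control and 83.8 and 84.4 in TRF2KO, with ratios of 0.351 and 0.431, and Tnc, the gene of tenascin C, stood at 63.3 to 68.4 with 0.227. Among adhesion genes the top member was an alternative start of Plxnb2, a semaphorin receptor, at 82.4 to 90.5. Irf7, a factor of the interferon response, ranked 74.3 to 76.3, with a ratio of 0.238. The DNA repair members were Parp1, at 87.0 to 89.3, and Atr, the kinase that answers to replication stress, at 85.8 to 86.9. Both had high CpG ratios, 0.881 and 0.977. Among ribosomal protein genes, Rpl18 ranked 92.3 to 93.6 and Rpl23 87.4 to 90.0, also with high ratios, so the members with high CpG content included housekeeping genes.

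Loss of TRF2 was compared over libraries, 2 against 2, where the smallest two-sided p of an exact permutation test is 0.333. The members' median rank was 69.8 ± 0.612 (SD, n = 2) in Control and 72.5 ± 0.112 (n = 2) in TRF2KO, a difference of 2.60 (exact permutation p = 0.333). The median of all open promoters was 79.6 and 81.0, and that of the promoters with TRF2 93.8 and 94.4. The gap between members and promoters with TRF2 was -24.0 in Control and -21.9 in TRF2KO, a difference of 2.06 (exact permutation p = 0.333). The direction depended on the scale. When the rank was taken among all MACS peaks of a library, the members' difference was -0.571 and that of the gap -0.487, and on the log2 fold scale the gap differed by -0.0867, so no direction of the gap can be given. The members' peaks covered a median of 1464 and 1529 bp of the region in Control and 1430 and 1360 bp in TRF2KO, a difference of -102 bp (exact permutation p = 0.333), and those of promoters with TRF2 differed by -58.0 bp. The TRF2KO lists held 83039 and 82556 peaks against 87394 and 98558 in Control, and the part of this difference in the widths was not tested.

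At single members, 507 (42.5%) ranked higher in both TRF2KO libraries than in both Control libraries and 150 (12.6%) ranked lower. Over all 14164 open promoters the shares were 39.0% and 13.8%, so the members were close to the background in both directions when a gap of any size was counted. With ranks among the open promoters alone, 293 members were higher (24.6%) and 282 lower (23.7%), against 23.9% and 23.0% of all open promoters. With ranks among all MACS peaks 115 were higher (9.65%) and 354 lower (29.7%), against 9.10% and 30.4%. Gaps of at least 5 points were more frequent in members than over all open promoters, with 109 higher (9.14%) and 34 lower (2.85%) against 5.75% and 2.09%. They were found at 0.908% and 0.280% of promoters with TRF2, whose ranks lay close to the top of the scale. Members also lay lower on the scale than all open promoters, with medians of 69.4 and 79.2 in Control replicate 1. The part of this position in the gaps was not tested, and such gaps were counted only with ranks among shared regions. The CpG classes of members differed in this respect. Of the CpG-rich members 48.1% ranked higher and 6.0% lower, and of the others 33.0% and 23.8%. With ranks among open promoters alone the shares were 27.7% and 16.4% for the former and 19.2% and 36.0% for the latter. Promoters with TRF2 showed the same contrast, with 26.8% and 15.4% in CpG-rich and 16.0% and 39.5% in other promoters. Over libraries, the median rank of CpG-rich members exceeded that of the others by 6.10 and 7.27 in Control and by 8.83 and 7.90 in TRF2KO, a difference of 1.68 (exact permutation p = 0.333), which this design cannot tell from the spread between libraries.

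The members farthest apart between genotypes differed in CpG content between the directions. A region at an alternative start in Sept9, a septin of the cytoskeleton, had ranks of 31.3 and 36.9 in Control and 2.62 and 0.543 in TRF2KO. Rgs14, a regulator of G protein signalling, had 79.0 and 78.6 against 57.0 and 47.2. Best1 (65.7 and 66.7 against 44.9 and 43.1), Akt1, a kinase of growth signalling (40.0 and 41.0 against 12.9 and 19.4), and Dok4 (58.0 and 59.8 against 35.6 and 38.0) followed. All 5 had CpG ratios from 0.157 to 0.337 and summits 382 to 1846 bp downstream of the start. In the other direction, an alternative start of Tspan9, a tetraspanin, had 16.3 and 15.9 in Control and 44.9 and 40.2 in TRF2KO. Lamb1, a laminin chain, had 6.93 and 7.35 against 28.4 and 24.4, Sema6b 25.6 and 26.6 against 44.1 and 43.1, Hes2 13.6 and 8.57 against 31.0 and 29.1, and Golga4 34.4 and 39.4 against 54.6 and 57.0. These 5 had ratios from 0.564 to 1.03, all above those of the 5 that ranked lower in TRF2KO, while the median over all members was 0.736. All 10 kept their direction, without overlap of the genotypes, when the rank was taken among all MACS peaks or among open promoters alone and on the log2 fold scale. They were chosen for this gap, so it is given as a description, and at the least accessible of them a fold rests on few fragments.

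The limits of the rule cut through a continuous range. The narrowest members, Lin54, Ap4b1 and Zbtb8a, were 1500 bp wide with ranks from 32.2 to 90.3. Just outside, Fbln5 and Mcf2l were 1 bp narrower than the limit and Tmem248 was 1498 bp wide, and these ranked from 8.05 to 78.6. The widest members were Casz1 (1999 bp), Utp4 and Catsperz (1997 bp each), and just outside were Slc7a7, Fgf9 and Ksr2 at 2001 bp. The members nearest to a TRF2 peak were Dpysl3, at 158 bp, A530084C06Rik, at 434 bp, and Olfr1033, at 453 bp. Just beyond the TRF2 limit were Gnb5, where a peak of replicate 1 overlapped the region by 59 bp, Dtx1, with 63 bp in replicate 2, and Vps52, with 173 bp in replicate 2. In all, 4 members had a TRF2 peak within 500 bp and 367 (30.8%) within 10000 bp.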

How the data were processed

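MuSC chromatin was profiled by ATAC-seq (2 Control, 2 TRF2KO) and CUT&Tag (2 TRF2, 1 IgG). Per the study's methods and the submitters' processing notes, the authors aligned reads to mm10 with Bowtie2 (2.4.4 for CUT&Tag, after trimming with cutadapt 4.4, and 2.5.4 for ATAC-seq in those notes), removed duplicates with Picard 3.1.1 and SAMtools 1.10 and kept uniquely aligned proper pairs. Peaks were called with MACS3 (3.0.0 for CUT&Tag, 3.0.2 for ATAC-seq), SEACR 1.3 and GoPeaks, and the lists used here are those of MACS for every library and of the other callers for ATAC-seq. MACS settings, a transposase shift of ATAC-seq reads and the use of IgG in calling are not given in the sources used here. The MACS lists deposited by the authors carry a fold, that is the ratio of the summit pileup to background, with -log10 p and -log10 q. The deposited SEACR lists carry signal from normalized coverage, used only in an alternative, and GoPeaks lists positions. The authors' consensus lists, pooled by genotype, were not used.

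Peaks were merged where they shared at least 1 bp. Each region took its highest fold in a library, ranked as a percentile of the 60354 shared regions. Starts were those of coding transcripts, and a region was named after the start nearest to the summit in Control replicate 1. Pileups were solved from fold and Poisson p for up to 3000 peaks per library with -log10 p under 200. Intervals are Clopper-Pearson at 95%, take each region as independent, so they cover counting error alone, and PCR fragments are not independent molecules. Libraries were compared by exact two-sided permutation, and regions were never used as replicates. Named promoters were the 10 of highest and 5 of lowest rank, list members (all of 4 lists, up to 6 of the others, of which a selection is printed), 5 with the largest gap in each direction, and those at the limits. A few of these promoters, sequences and lists are not reported here. Members and lists were chosen with earlier results of these data known. Steps were tested on simulated data. Python 3.11.15 with NumPy, pandas, SciPy and matplotlib was used.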

Additional observations from a re-analysis of the deposited data

How the results depend on the processing

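The number of members depended on the TRF2 threshold. With TRF2 peaks at -log10 q of at least 5, 1946 wide promoters (57.4%) held none, of which 71.6% were CpG-rich. Leaving out 1 library gave 1096 to 1605 members and shares of 34.0% to 47.3%, with both high values from leaving out a TRF2 library. With starts of genes the share was 32.5%, with widths of 1000 bp to under 1500 bp 1852 promoters and 46.5%, and with 2000 bp to under 2500 bp 649 and 33.4%. The higher CpG-rich share of promoters with TRF2 held under every window and definition tried. For members and promoters with TRF2 it was 48.2% and 73.2% over the whole region, 46.6% and 69.5% with a ratio of at least 0.75 and GC of at least 55%, and 63.5% and 88.3% in 200 bp. The G4 shares stayed close between the classes, with 20.1% and 21.6% in 200 bp, 69.0% and 68.3% over the whole region, and 60.0% and 61.1% with loops of up to 12 bases. The members' genotype difference of median rank turned to -0.571 with ranks among all MACS peaks, and leaving out 1 library gave 2.17 to 3.03. For the gap between classes the same setting gave -0.487, log2 fold -0.0867, SEACR signal -2.30 and ranks among open promoters alone, an alternative chosen after seeing the data, -0.272, and leaving out 1 library gave 1.78 to 2.33. The difference in peak width was -137 to -67.2 bp with 1 library left out. Members lower and higher in TRF2KO numbered 150 and 507 (12.6% and 42.5%, against 13.8% and 39.0% of all open promoters). With ranks among all MACS peaks they numbered 354 and 115 (29.7% and 9.65%, against 30.4% and 9.10%). With a gap of at least 5 points they numbered 34 and 109 (2.85% and 9.14%, against 2.09% and 5.75%). Among open promoters alone they numbered 282 and 293 (23.7% and 24.6%, against 23.0% and 23.9%). With the stricter TRF2 peaks they numbered 233 and 863 of a larger set of 1946 members. The shares of all open promoters stay at 13.8% and 39.0% there. With 1 library left out they numbered 235 to 268 and 638 to 703 of the 1192 members, since fewer libraries overlap less often. The shares over all open promoters were not counted with 1 library left out, so these numbers have no background beside them. The cause of the other changes was not tested. With the replicate block, pairing libraries by number, the differences were the same (2.60, 2.06 and -102 bp) with an exact sign-flip p of 0.50. Deviations of same-numbered libraries from their group means correlated at 0.0619 over members, so the numbers were not taken as pairs. In counts of list members without TRF2, also added after seeing the data, the developmental list went from 22 to 28 and DNA repair from 2 to 3 with the stricter TRF2 peaks.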

Other observations

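Some genes of the members had other open promoters, a share that was not counted for genes of the compared promoters. The 1192 regions lay near starts of 1255 coding genes, and 316 of these (25.2%, 95% interval 22.8 to 27.7) had another open promoter region in all 4 ATAC-seq libraries. For 69 genes (5.50%, 4.30 to 6.91) that other region held TRF2 in both libraries, so the missing peak belonged to 1 promoter and not to the gene. At Rab30, a small GTPase gene, the member at chr7:92820451-92822255 lay 78317 bp from a start whose region (chr7:92740841-92743424) held TRF2 with folds of 9.28 and 12.8. At Dst, which encodes a large cytoskeletal linker, the distance was 230714 bp and the folds 8.52 and 10.9, at Sulf1, an extracellular sulfatase of heparan sulfate, 26206 bp and 8.28 and 7.89, and at Xpnpep1 1654 bp and 9.42 and 10.1. Impact and Crem, both on chromosome 18, completed the 6 genes with the highest TRF2 fold at the other promoter.

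Members were found on all 19 autosomes, from 25.7% (17.6 to 35.4) of the wide promoters of chromosome 16 to 40.6% (34.9 to 46.6) of those of chromosome 11.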
